A study of Homo sapiens with 5 samples.

Results

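The S100 calcium-binding genes considered here are S100A2, S100A3, S100A4, S100A6, S100A7, S100A8, S100A9, S100A10, S100A11 and S100A13. They were taken by name, and they are 10 of the 20098 protein-coding genes annotated on chromosomes 1 to 22 and X. All 10 lie on the long arm of chromosome 1, between positions 151955391 and 153603836 of hg19 (GRCh37). The S100 proteins are small EF-hand proteins that mostly form dimers, change shape when they bind calcium and then bind other proteins. Some act inside the cell on the cytoskeleton and on membranes, and some are secreted and bind receptors of inflammation. Several are studied in breast cancer and its spread, and most of their genes sit in a cluster that is split by the epidermal differentiation genes.

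The data are ChIP-Seq peak lists of the transcription factors Fra-1, MYC and E2F1 in untreated LM2 cells. This established line was derived from MDA-MB-231 breast cancer cells, which lack the oestrogen and progesterone receptors and HER2 amplification, and it spreads readily to the lung in mice. Fra-1 is a FOS-family subunit of AP-1, which binds the sequence TGAGTCA, read as TGACTCA on the opposite strand. MYC binds E-boxes such as CACGTG, and E2F1 is a cell-cycle regulator. Chromatin was crosslinked with 1% formaldehyde for 15 min, and all 3 lists came from the same line, were called against the same input DNA and have 1 library each. Thus no value below has a replicate error, no difference between factors or genes could be tested, and the order of neighbouring values cannot be judged against a spread. An EZH2 library was not analysed here, nor was the fourth TF.

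For each peak, the pileup is the depth of DNA fragments at its summit as the peak caller listed it, in whole numbers and after scaling of the deeper library, so it is not a raw count of fragments. The fold enrichment is the ratio to the local background as the peak caller listed it. It was not recomputed from the pileup and need not equal the plain quotient of the 2. The −log10 q measures how far the peak stands above that background. After filtering, 12931227 Fra-1, 23853621 MYC, 18056168 E2F1 and 10758036 input tags were used, and the lists held 17320, 4867 and 36933 peaks. Because depth differs, the 3 factors were not ranked against each other by fold enrichment. The strength of a peak is instead also given as its percentile, its rank by fold enrichment among all peaks of the same factor, in percent, with ties averaged. The lowest pileup listed was 5 for each factor, so where no peak is listed, weak binding was not detectable at this depth. A promoter is the window from 2 kb upstream to 2.5 kb downstream of any annotated transcription start site (TSS).

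Of the 10 genes, 6 had a Fra-1 peak in a promoter window, against 13.2% of all protein-coding genes. MYC promoter peaks were found at 3 of the 10, against 17.8%, and E2F1 promoter peaks at 7, against 61.3%. S100A10, S100A6 and S100A2 had promoter peaks of all 3 factors, a combination found at 4.67% of protein-coding genes. S100A11, S100A4 and S100A3 had Fra-1 and E2F1 peaks without a MYC peak, and S100A13 had an E2F1 peak alone. S100A9, S100A8 and S100A7 had no promoter peak of any factor, as did 37.8% of protein-coding genes. In the full lists the share with a peak was above the background for Fra-1 and near it for E2F1, and the MYC interval given below contains its background. With each list reduced to its 4867 peaks of highest −log10 q, Fra-1 was listed at 2 of the 10 genes, against 3.42%, and 5 genes had no promoter peak. E2F1 was then listed at 5, against 25.7%. No interval was computed for the reduced lists, so whether these shares depart from their background was not tested. With only 10 genes, the 95% Wilson intervals of the full lists were wide, for Fra-1 from 31.3 to 83.2%, for MYC from 10.8 to 60.3% and for E2F1 from 39.7 to 89.2%. These intervals cover counting error only, and neighbouring genes are not independent, since 1 Fra-1 and 1 E2F1 peak each fell in the windows of both S100A4 and S100A3.

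These genes were short, with a median length of 4847 bp against 27256 bp for all protein-coding genes, and had a median of 3 TSS against 5.

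**Figure D1:**
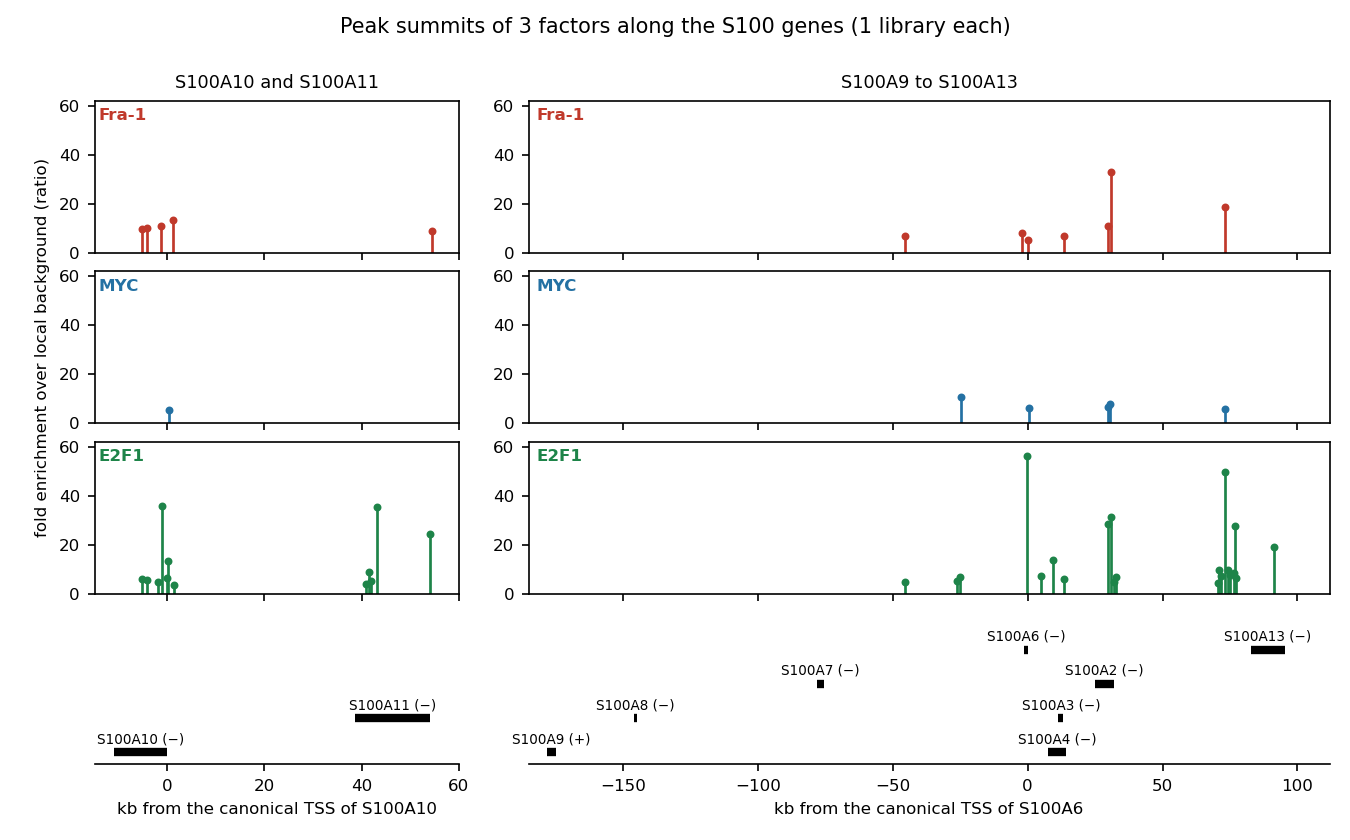
Fold enrichment (vertical axis, ratio) of Fra-1, MYC and E2F1 peaks at their summits. The horizontal axis is the distance in kb from the canonical TSS of S100A10 (left) or S100A6 (right). The 10 genes and their strands are drawn below as bars. Only peaks between 151955391 and 153605836 are drawn, and most of the stretch between S100A11 and S100A9 is left out. Peaks just past the S100A13 promoter windows, among them an E2F1 peak of fold enrichment 48.8, are therefore not shown. Peaks stand at S100A10 and S100A11 and from S100A6 to S100A13, and none stands at S100A9, S100A8 or S100A7.

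S100A2 had the strongest Fra-1 peak of the locus. It encodes a largely nuclear S100 protein of basal epithelial cells, lies on the minus strand at 153533584 to 153540366, and has 6 TSS with the canonical one at 153538320. Within its promoter windows 2 groups of peaks were found, one at an upstream TSS and one at the canonical TSS. The sequences around the AP-1 sites of both are shown because summits of all 3 factors lay at the first and summits of Fra-1 and E2F1 at the second. All sequences are from the plus strand of GRCh37, 5′ to 3′, with the motif in capitals. The first 2 are chr1:153539159-153539187 and chr1:153539197-153539225. The AP-1 site of the first is in an intron of S100A2, though its stretch also overlaps an annotated untranslated region. The second is at an annotated 5′ exon of S100A2. The third is chr1:153538339-153538399, in an intron of S100A2 just upstream of the canonical TSS.
S100A2 upstream TSS, first AP-1 site: tcagccctaagTGACTCAcccgaggttcc
S100A2 upstream TSS, second AP-1 site: tgcccaggcagTGACTCAgcggcacaccc
S100A2 canonical TSS, AP-1 site: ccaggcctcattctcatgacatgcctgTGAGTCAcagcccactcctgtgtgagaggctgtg

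At the upstream TSS of S100A2, at 153539231, the Fra-1 peak from 153538933 to 153539310 had a pileup of 61, fold enrichment of 33.1 and −log10 q of 83.6. This put it at percentile 99.5 of all Fra-1 peaks. The E2F1 peak from 153538686 to 153539674 had a pileup of 58, fold enrichment of 31.4 and −log10 q of 79.3, at percentile 91.9 of its own list. The MYC peak from 153539102 to 153539251 had a pileup of 14, fold enrichment of 7.94 and −log10 q of 8.19, at percentile 71.1. The summits of the 3 factors thus fell close together, with Fra-1 31 bp from MYC and 17 bp from E2F1, and MYC 48 bp from E2F1. Both printed AP-1 sites lay within 50 bp of all 3 summits. The second site covered the E2F1 summit, and the first was 5 bp from the MYC summit.

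At the canonical TSS of S100A2, the Fra-1 peak was weaker, with a pileup of 20, fold enrichment of 10.9 and −log10 q of 16.5 (percentile 72.1). Its summit lay 65 bp upstream of the TSS. The E2F1 peak had a pileup of 40, fold enrichment of 28.5 and −log10 q of 60.4 (percentile 89.8), with its summit 34 bp upstream. The MYC peak had a pileup of 8, fold enrichment of 6.65 and −log10 q of 5.59 (percentile 47.9). All 3 factors were therefore lower here than at the upstream TSS, by pileup and by fold enrichment. The AP-1 site was 13 bp from the Fra-1 summit and 12 bp from the E2F1 summit. No CACGTG was found within 50 bp of either MYC summit of S100A2, and none of the E2F sequences searched lay within 50 bp of its 4 E2F1 summits. The other E2F1 peaks of S100A2, near and upstream of its most upstream TSS, had fold enrichments of 4.97 and 6.80.

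**Figure D2:**
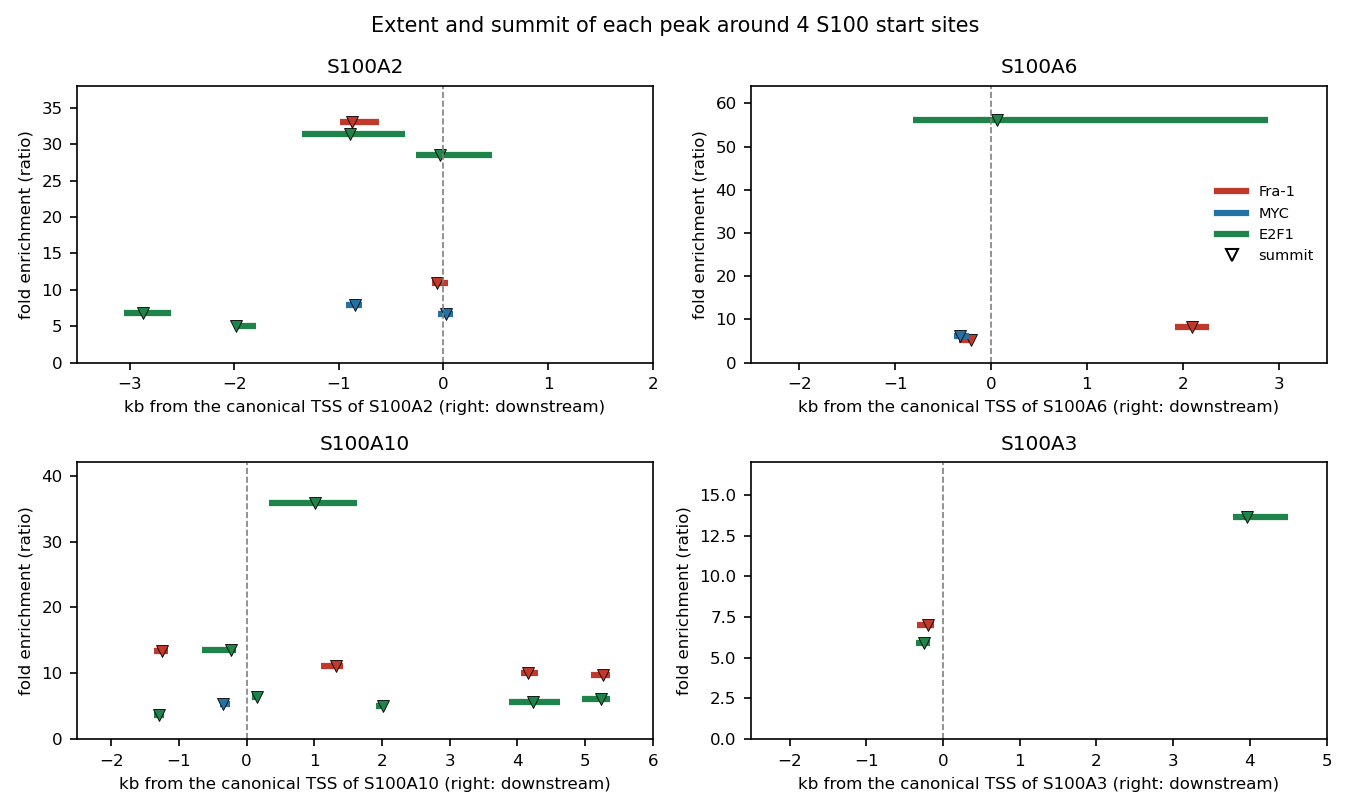
Extent (horizontal bar) and summit (triangle) of each peak around the canonical TSS of S100A2, S100A6, S100A10 and S100A3 (dashed line at 0), with the distance in kb on the horizontal axis, downstream to the right, and the fold enrichment (ratio) on the vertical axis, whose range differs between panels. At S100A2 the 3 factors share both positions, whereas at S100A10 the strong E2F1 peak and the MYC peak lie on opposite sides of the TSS.

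S100A6, which encodes calcyclin, a protein of proliferating cells that binds annexins and the calcyclin-binding protein, had the strongest E2F1 peak of the locus. The gene lies on the minus strand at 153507075 to 153508720 with the canonical TSS at 153508467. Its MYC peak had an E-box and the stronger of its Fra-1 peaks an AP-1 site, which are shown because each is the motif of the factor whose summit lies beside it. The E-box is in chr1:153508735-153508762, upstream of the gene. The AP-1 site is in chr1:153506372-153506432, past the 3′ end of S100A6 in an intron of the lncRNA gene ENSG00000238279. That second stretch also reaches an exon of the lncRNA gene.
S100A6 upstream, E-box: gctcttcgtgaCACGTGactcggcaagg
S100A6 downstream, AP-1 site: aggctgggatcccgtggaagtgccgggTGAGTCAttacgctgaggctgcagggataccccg

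The E2F1 peak of S100A6 was 3702 bp wide, from 153505580 to 153509281, and so covered the whole gene. Its summit lay 67 bp downstream of the canonical TSS, where the pileup was 111, the fold enrichment 56.2 and −log10 q 178, at percentile 99.3 of all E2F1 peaks. The MYC peak was modest, with a pileup of 11, fold enrichment of 6.14 and −log10 q of 5.14 (percentile 35.0), and its summit was 71 bp upstream of the most upstream TSS and 40 bp from the E-box. Fra-1 was weak at the start of S100A6. The Fra-1 peak there had a pileup of 8, fold enrichment of 5.23 and −log10 q of 3.80 (percentile 11.5), and no AP-1 site lay within 50 bp of its summit. The other Fra-1 peak, 2092 bp downstream of the canonical TSS, had a pileup of 31, fold enrichment of 8.15 and −log10 q of 17.7 (percentile 48.9), with the AP-1 site 24 bp from its summit. The gene with the strongest E2F1 peak thus had a Fra-1 peak in the lowest part of the Fra-1 list at its start. Peaks of all 3 factors overlapped from 153508692 to 153508802, but their summits were 117 to 391 bp apart, farther than at S100A2.

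S100A10 encodes p11, which pairs with annexin A2 at the plasma membrane, where the complex binds plasminogen. It lies on the minus strand at 151955391 to 151966335, with the canonical TSS at 151966335 and another TSS at 151965054. It had 4 Fra-1 peaks, of which 2 were in promoter windows and 2 in the gene body, and 3 of the 4 had an AP-1 site within 50 bp of the summit. These sites are shown because they hold the Fra-1 motif at the gene where both Fra-1 and E2F1 had more peaks than at any other of the 10. They lie in chr1:151964980-151965008, chr1:151962127-151962187 and chr1:151961061-151961121. All the AP-1 sites are in introns of S100A10, and the first printed stretch also overlaps an annotated untranslated region.
S100A10 at the downstream TSS, AP-1 site: cagaccaggtgTGACTCActtcctcttgg
S100A10 body, first AP-1 site: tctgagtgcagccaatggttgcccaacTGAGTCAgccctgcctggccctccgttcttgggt
S100A10 body, second AP-1 site: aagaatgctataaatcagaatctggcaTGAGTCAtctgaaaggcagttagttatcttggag

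The strongest Fra-1 peak of S100A10 had its summit 1256 bp upstream of the canonical TSS, in an intron of the lncRNA gene ENSG00000229021, with a pileup of 25 and a fold enrichment of 13.4 (percentile 83.5). This was the peak without an AP-1 site. The Fra-1 peak 41 bp downstream of the TSS at 151965054 had a pileup of 32 and a fold enrichment of 11.1 (percentile 73.6). The body peaks had pileups of 19 and 28 and fold enrichments of 10.1 and 9.76. E2F1 was less even. Its strongest peak at S100A10, with the summit 263 bp upstream of the TSS at 151965054, had a pileup of 67, fold enrichment of 35.9 and −log10 q of 95.4 (percentile 94.5). The other 4 E2F1 promoter peaks had fold enrichments from 3.68 to 13.5, and the 2 in the body 5.61 and 6.06. The MYC peak of S100A10 was the weakest MYC peak of the locus, with a pileup of 7, fold enrichment of 5.38 and −log10 q of 2.98 (percentile 16.1). It overlapped an E2F1 peak and no Fra-1 peak, and it was lost when −log10 q of at least 5 was required, which left S100A6 and S100A2 as the genes with all 3 factors.

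S100A11, whose protein binds annexin A1, lies at 152004982 to 152020383 on the minus strand and has its canonical TSS at 152009480. Its strongest E2F1 peak had the summit 67 bp downstream of that TSS, with a pileup of 69, fold enrichment of 35.4 and −log10 q of 96.6 (percentile 94.2). The only Fra-1 peak lay elsewhere, 372 bp upstream of an upstream TSS at 152020383 and 11275 bp from the canonical one. It had a pileup of 25 and a fold enrichment of 8.93 (percentile 57.2). An E2F1 peak with a pileup of 72 and a fold enrichment of 24.4 (percentile 86.0) overlapped it. The upstream transcript has no annotated coding sequence, so the Fra-1 count of 6 genes became 5 when only the TSS of protein-coding transcripts were used, against 10.2% of protein-coding genes. The AP-1 site at this Fra-1 summit, 8 bp away, is shown because it lies at a start of S100A11 other than the canonical one, in chr1:152020714-152020774 upstream of the gene.
S100A11 upstream TSS, AP-1 site: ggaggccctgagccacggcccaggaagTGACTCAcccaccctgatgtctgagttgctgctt

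S100A4 and S100A3 share sequence. S100A4 encodes metastasin, which binds non-muscle myosin IIA and is known for promoting metastasis, and S100A3 is a zinc-binding protein of the hair cuticle. S100A4 spans 153516089 to 153522612 with the canonical TSS at 153518282, and its longest transcripts enclose S100A3, at 153519805 to 153521734. The single Fra-1 peak, with its summit 190 bp upstream of the canonical TSS of S100A3 and within an intron of S100A4, had a pileup of 19, fold enrichment of 6.99 and −log10 q of 9.81 (percentile 34.1). An E2F1 peak with its summit 61 bp from the Fra-1 summit had a pileup of 16 and a fold enrichment of 5.89 (percentile 22.4). These 2 peaks counted for both genes, and with the canonical TSS alone the Fra-1 peak counted for S100A3 and no longer for S100A4. In that setting 4 of the 10 genes had a Fra-1 promoter peak, against 7.20% of protein-coding genes. S100A4 also had an E2F1 peak of its own, with a pileup of 25, fold enrichment of 13.6 and −log10 q of 25.2 (percentile 68.9), whereas Fra-1 had no peak at that position. The AP-1 site between the Fra-1 and E2F1 summits is shown because it lies at the only Fra-1 peak of both genes, in chr1:153521926-153521986.
S100A4 and S100A3, AP-1 site: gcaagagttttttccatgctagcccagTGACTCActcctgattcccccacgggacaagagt

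S100A13, whose protein takes part in the release of FGF1, lies at 153591263 to 153603836 on the minus strand with the canonical TSS at 153599981. It had 1 peak, an E2F1 peak with the summit 27 bp downstream of that TSS, a pileup of 76, fold enrichment of 19.3 and −log10 q of 74.1 (percentile 79.8). The peak also lay in a promoter window of S100A1, the gene on the opposite strand. Just outside its promoter windows stood a stronger E2F1 peak with a fold enrichment of 48.8, which began 100 bp past the window. MYC peaks with fold enrichments of 4.56 and 6.99 began 566 and 765 bp past it. The E2F1 summit lay 2715 bp from the nearest TSS of S100A13, and the MYC summits 2687 and 2950 bp from it. A window longer by less than 1 kb would thus have counted MYC for this gene. Whether these peaks lie at the start of a neighbouring gene was not examined, so they are not assigned to S100A13.

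S100A8 and S100A9, which form calprotectin in neutrophils and bind TLR4 and the receptor RAGE, and S100A7, the keratinocyte protein psoriasin, had no peak in a promoter window or in the gene body. The nearest Fra-1 summit was 29792 bp from the canonical TSS of S100A7, 99370 bp from that of S100A8 and 132589 bp from that of S100A9. The nearest E2F1 summits lay 8 bp beyond these, and the nearest MYC summits 50456, 120034 and 153253 bp away. All 3 genes lay in 1 interval of 457 kb, from 153005677 to 153462825, in which no factor had a peak and which held 16 protein-coding genes. The absence of listed peaks thus extended well beyond these 3 genes. Only reads that mapped uniquely to the masked genome were kept, and how much of this interval could be mapped was not examined.

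**Figure D3:**
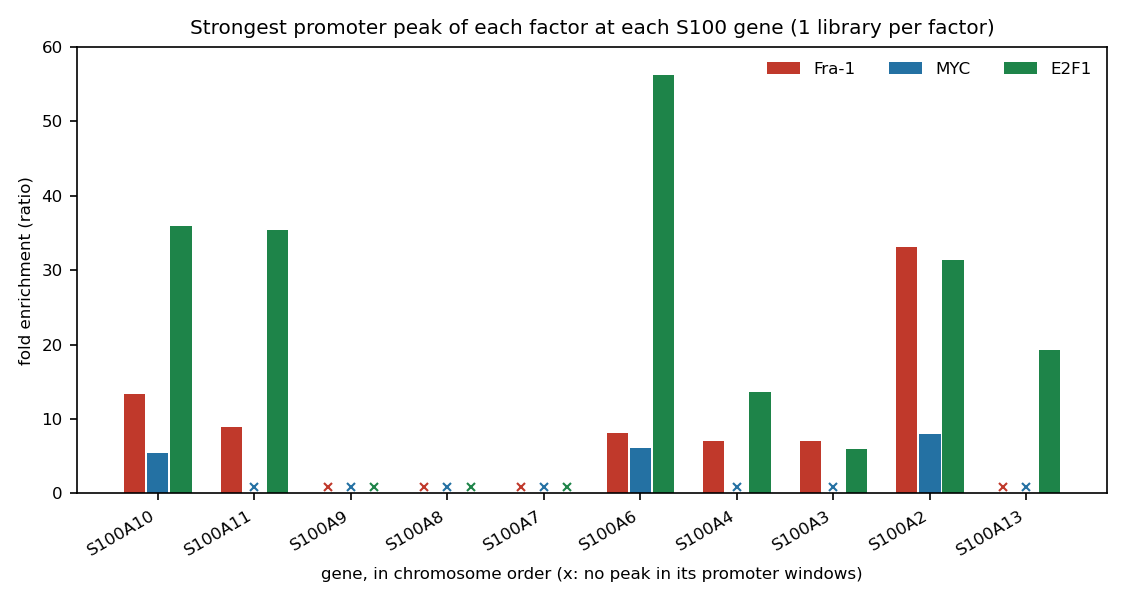
Fold enrichment (ratio) of the strongest promoter peak of each factor at each of the 10 genes in chromosome order, 1 library per factor, with a cross where no peak was listed. Fra-1 was highest at S100A2 with 33.1, E2F1 at S100A6 with 56.2 and MYC at S100A2 with 7.94.

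Set side by side, the strength of the strongest promoter peak ran in a different order for each factor. By fold enrichment, Fra-1 ran from S100A2 (33.1) over S100A10 (13.4), S100A11 (8.93) and S100A6 (8.15) to the shared peak of S100A4 and S100A3 (6.99). E2F1 ran from S100A6 (56.2) over S100A10 (35.9), S100A11 (35.4), S100A2 (31.4), S100A13 (19.3) and S100A4 (13.6) to S100A3 (5.89). MYC ran from S100A2 (7.94) over S100A6 (6.14) to S100A10 (5.38). Ordered by −log10 q instead, S100A6 and S100A11 changed places for Fra-1, as did S100A10 and S100A11 for E2F1, so those neighbours were not separated. S100A2 remained first for Fra-1 and S100A6 first for E2F1 under both measures. The Fra-1 place of S100A6 also depended on the window. With 1 kb to either side of a TSS its strongest Fra-1 fold enrichment was 5.23, below the 6.99 of S100A4 and S100A3.

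Over the whole locus of 1.65 Mb there were 16 Fra-1, 6 MYC and 40 E2F1 peaks. Of these, 8 Fra-1, 4 MYC and 18 E2F1 peaks were in promoter windows of the 10 genes, 2 Fra-1 and 2 E2F1 peaks in gene bodies alone, and 6 Fra-1, 2 MYC and 20 E2F1 peaks between the genes. With lists of equal length these counts became 6, 6 and 7, and merging E2F1 peaks within 1 kb left 19, so the E2F1 count and its density depended on how peaks were counted. In the full lists the peaks were concentrated at both ends. From S100A10 to S100A11, 4 Fra-1, 1 MYC and 12 E2F1 peaks in 65.0 kb gave 61.5, 15.4 and 185 peaks per Mb. The MYC density there thus rests on the 1 weak peak of S100A10, which was lost when −log10 q of at least 5 was required. From S100A9 to S100A13, 7, 5 and 21 peaks in 274 kb gave 25.6, 18.3 and 76.8 per Mb in the same order. Over chromosome 1 the values were 6.36, 1.52 and 14.3. Between S100A11 and S100A9, over 1.31 Mb, they were 3.82, 0 and 6.11 per Mb, below the chromosome for each factor. Peaks were placed by summit, so this middle stretch includes the S100A11 promoter peaks of Fra-1 (8.93) and E2F1 (24.4) with summits upstream of 152020383. Those peaks are not in the density from S100A10 to S100A11. Of the 47 protein-coding genes of that middle stretch, which include the filaggrin, late cornified envelope and small proline-rich protein genes, 46 had no promoter peak of any factor. The exception was SPRR1B, with a Fra-1 peak of fold enrichment 7.55. The strongest peaks of the middle stretch that fell outside the S100A11 promoter window were a Fra-1 peak of fold enrichment 16.9 in a promoter window of the antisense gene FLG-AS1 and an E2F1 peak of 20.8 in an exon of TCHH.

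Peaks between the genes included the strongest MYC peak of the locus. It lay from 153483511 to 153483736, 24884 bp past the canonical TSS of S100A6 and outside every promoter window, with a pileup of 20, fold enrichment of 10.6 and −log10 q of 15.2 (percentile 91.0). An E-box lay 40 bp from its summit, and an E2F1 peak of fold enrichment 7.05 overlapped it, with the summits 37 bp apart. About 1 kb away, the E2F1 peak with its summit at 153482413 and a fold enrichment of 5.45 was the only one of the 40 with an E2F sequence within 50 bp. Both sites are shown because they are the only places of the locus outside promoter windows where MYC or E2F1 stood beside its own motif, in chr1:153483596-153483655 and chr1:153482415-153482476.
Between S100A7 and S100A6, E-box: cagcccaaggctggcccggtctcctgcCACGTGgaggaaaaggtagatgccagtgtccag
Between S100A7 and S100A6, E2F sequence: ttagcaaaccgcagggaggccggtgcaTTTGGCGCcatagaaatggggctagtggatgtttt

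The motifs were counted within 50 bp of the summits on both strands, as TGAGTCA for AP-1, CACGTG for the E-box, and TTTGGCGC, TTTCCCGC, TTTGCCGC or TTTCGCGC for E2F. AP-1 was found at 10 of the 16 Fra-1 summits of the locus, against 53.3% of all Fra-1 summits. It was also found at 8 of the 40 E2F1 summits, against 12.2%, and at 2 of the 6 MYC summits, against 6.09%. The E-box was found at 2 of the 6 MYC summits, against 16.8%, and an E2F sequence at 1 of the 40 E2F1 summits, against 1.68%. In the S100 locus the AP-1 sequence was thus more frequent at E2F1 summits than the E2F sequence was, as it was over the full E2F1 list. A match is a run of letters, and whether a factor bound there was not tested.

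Peaks of different factors overlapped often in the locus. Of the 16 Fra-1 peaks, 14 (87.5%) overlapped an E2F1 peak, against 61.5% of all Fra-1 peaks, and 4 (25%) overlapped a MYC peak, against 5.93%. All 6 MYC peaks overlapped an E2F1 peak, as did 96.1% of all MYC peaks, and 4 of the 6 overlapped a Fra-1 peak, against 21.4%. Of the 40 E2F1 peaks, 13 (32.5%) overlapped a Fra-1 peak and 6 (15%) a MYC peak, against 28.3% and 10.8%. All 3 factors overlapped in 4 regions, 2 at S100A2, 1 at S100A6 and 1 at S100A16, and in 2 regions with lists of equal length. At 50% reciprocal overlap none of these 4 regions remained, the E2F1 peak being the widest in each, whereas the summits at the 2 regions of S100A2 were 17 to 94 bp apart.

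**Figure D4:**
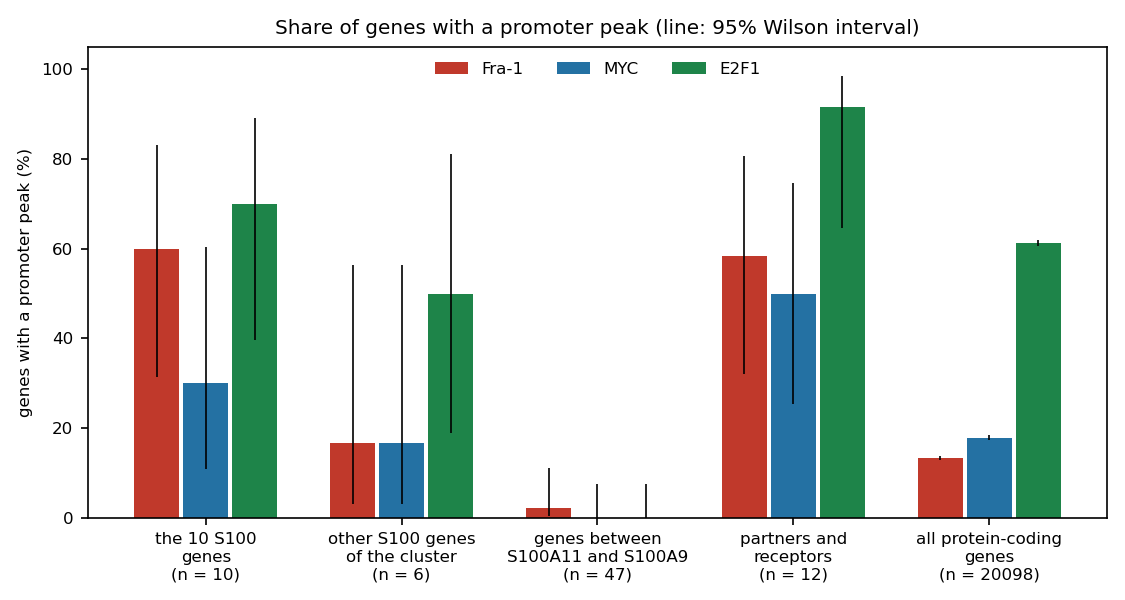
Percentage of genes with a promoter peak of each factor (bars, 1 library per factor) in the 10 S100 genes, the 6 other S100 genes of the cluster, the 47 genes between S100A11 and S100A9, 12 partner and receptor genes and all 20098 protein-coding genes, with 95% Wilson intervals that cover counting error only. Fra-1 was listed at 6 of the 10 S100 genes and at 13.2% of all protein-coding genes, and the interval of the 10 genes is wide.

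Of the 6 other S100 genes in the cluster, S100A16 had promoter peaks of all 3 factors, S100A1 and S100A5 had E2F1 alone, and S100A7A, S100A12 and S100A14 had none. At S100A16, which lies between S100A2 and S100A13, the Fra-1 peak had a fold enrichment of 18.8 (percentile 94.2), MYC 5.91 (percentile 29.2) and E2F1 49.9 (percentile 98.6). The 3 summits lay within 76 bp. The E2F1 peaks of S100A1 and S100A5 had fold enrichments of 19.3 and 7.48, and the first is the same peak as that of S100A13. The 4 S100 genes outside the cluster, S100B, S100P, S100G and S100Z, had no promoter peak. Over these 10 other S100 genes, Fra-1 was listed at 1, near the 13.2% of all protein-coding genes. The difference from the 10 genes described above was not tested, and with the 6 others of the cluster the Wilson intervals overlapped for each factor.

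Of 12 genes whose proteins bind S100 proteins, Fra-1 was listed at 7 promoters, MYC at 6 and E2F1 at 11. All 3 factors were found at BSG, a receptor of S100A9, at ANXA11, the annexin that binds S100A6, at AHNAK, which binds the complex of S100A10 and annexin A2, and at MYH9, the myosin that S100A4 binds. The strongest Fra-1 peak of each had a fold enrichment of 9.24 at BSG, 11.7 at ANXA11, 13.6 at AHNAK and 18.6 at MYH9. The strongest MYC peaks there had fold enrichments of 5.62, 11.4, 12.9 and 7.18 in the same order. AGER, which encodes RAGE, was the only one of the 12 with no peak. ANXA2, the partner of S100A10, was named after its values were seen. It had 4 Fra-1 promoter peaks, with a highest fold enrichment of 25.2 (percentile 98.0), and 15 E2F1 promoter peaks, with a highest of 44.3, but no MYC peak. Over the 12 genes the Fra-1, MYC and E2F1 shares were 58.3%, 50% and 91.7%, each above the share of all protein-coding genes. The differences were not tested. The 12 genes were chosen with earlier results of these data known, so the list is not independent of the data. Their length and number of TSS were not compared with those of all genes.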

How the data were processed

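Reads were trimmed (Trimmomatic 0.27) and mapped to repeat-masked hg19 (Bowtie 0.12.5) by the authors. Duplicates were removed and MACS2 (2.0.10.20120913 in the file headers) was run per library with the input as control and a q-value cutoff of 0.01. The deposited tables give the pileup as the signal after scaling of the deeper library to the shallower one, the fold enrichment as a ratio to the background, and p- and q-values as −log10. The deposited BED files held the same 17320, 4867 and 36933 calls and were not used.

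Deposited coordinates (hg19, 1-based) were compared with GRCh37 and GENCODE 44 mapped to it, on chromosomes 1 to 22 and X. A peak was assigned to a promoter or, outside promoters, to a gene body from 1 bp of overlap. Distances to motifs run from the summit to the nearest base of the motif. All 10 genes were named with their peaks, other S100 genes by their promoter peaks, partners where all 3 factors or none had a promoter peak, and further genes where they share a peak with 1 of the 10 or hold a strongest peak of the locus. ANXA2, SPRR1B, FLG-AS1 and TCHH were named after their values were seen. Genes, lists and partners were chosen with earlier results of these data known.

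With 1 library per factor no test was made. The alternatives were stricter peak thresholds (5 or more for −log10 q or for fold enrichment), lists of equal length, windows of 1 kb to either side, assignment by summit, other TSS sets, merging of peaks within 1 kb, other overlap rules, order by −log10 q, and motif windows of 100 bp. Scripts were tested on simulated data. Tables were handled in Python 3.11.15 (pandas 2.3.3, numpy 2.4.6), intervals came from scipy 1.17.1 and plots from matplotlib 3.10.9.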

Additional observations from a re-analysis of the deposited data

How the results depend on the processing

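Of 90 recomputed values over 39 results, 74 stayed close to those reported (counts within 1.5 times, strongest values unchanged) and 16 moved. The 74 include losses among small counts. MYC genes fell from 3 to 2 at −log10 q of at least 5, and Fra-1 genes from 6 to 4 with the canonical TSS. With lists of equal length, E2F1 genes fell from 7 to 5 and genes with all 3 factors from 3 to 2. With each list reduced to its 4867 peaks of highest −log10 q, Fra-1 was listed at 2 of the 10 genes (S100A2 and S100A10), against 3.42% of protein-coding genes, 5 genes had no promoter peak, and the locus held 6 Fra-1 and 7 E2F1 peaks. Overlapping pairs then numbered 3 for Fra-1 with E2F1, 3 for MYC with E2F1 and 2 for Fra-1 with MYC, and regions of all 3 factors 2. Merging peaks within 1 kb left 19 E2F1 peaks. Reciprocal overlap of 50% left 5 Fra-1 and E2F1 pairs, 1 MYC and E2F1 pair and 0 regions of all 3 factors. Requiring −log10 q of at least 5 left 2 Fra-1 and MYC pairs and 2 regions of all 3 factors. With windows of 1 kb to either side, the strongest Fra-1 fold enrichment was 11.1 at S100A10 and 5.23 at S100A6. The 6 Fra-1 genes were still 6 under stricter thresholds, 1 kb windows and assignment by summit.

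No paired analysis was possible because each factor has 1 library, and leaving out a replicate was not run for the same reason. The peaks show where each factor was listed in these 3 libraries and hold no measure of expression. Binding weaker than the lowest listed peaks was not detectable.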
